A study of Saccharomyces cerevisiae with 26 samples.

Results

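The comparison described here set H3A110C against WT budding yeast in glucose, by RNA sequencing of 6 libraries out of the 26 in the series. H3A110C denotes cells in which the alanine at position 110 of histone H3 was replaced by cysteine in both H3 genes, HHT1 and HHT2, and WT denotes the parental cells with unchanged H3. Both strains are MATa haploids of the S288C background that carry the alleles his3Δ1, leu2Δ0, met15Δ0 and ura3Δ0 and an HHT2 gene put back at its own locus, so these changes are shared by the 2 groups. Each strain was grown in SC, a synthetic complete medium in which yeast ferments glucose, and gave 3 libraries. The columns of the count table name these libraries by the letters A, B and C in each strain. What a letter stands for is not given in the sources used here, and the letters could not be matched to the numbered samples. The question of the comparison is what this substitution does to messenger RNA when cells do not have to respire. The comparison is given with the letter as a block, that is, as the difference between H3A110C and WT within each letter.

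Histone H3 forms a tetramer with histone H4 at the centre of the nucleosome, and position 110 of H3 lies near the contact between the H3 copies. Most eukaryotes have a cysteine there, which budding yeast and many other fungi lack. For human H3 this cysteine has been discussed as part of a copper site, and the H3-H4 tetramer as an enzyme that reduces copper. Fermenting yeast has a small need for the mitochondrial and copper enzymes of respiration. MIC19 encodes a subunit of the mitochondrial contact site and cristae organizing system (MICOS), the complex that shapes the junctions of the mitochondrial inner membrane. IMD2 encodes inosine monophosphate dehydrogenase, the enzyme that commits purine synthesis to guanine nucleotides, and its transcription is known to fall when guanine nucleotides are plentiful.

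The 2 genes that passed the test are best seen with the DNA at their starts. Each window runs from 250 bases before to 50 bases after the first coding base, on the coding strand, from the R64 genome (RefSeq). Capitals mark TATATA, a stretch of TATA-box type that reads the same on both strands. The MIC19 window lies at VI:167209-167508 on the minus strand and the IMD2 window at VIII:554146-554445 on the plus strand.
MIC19: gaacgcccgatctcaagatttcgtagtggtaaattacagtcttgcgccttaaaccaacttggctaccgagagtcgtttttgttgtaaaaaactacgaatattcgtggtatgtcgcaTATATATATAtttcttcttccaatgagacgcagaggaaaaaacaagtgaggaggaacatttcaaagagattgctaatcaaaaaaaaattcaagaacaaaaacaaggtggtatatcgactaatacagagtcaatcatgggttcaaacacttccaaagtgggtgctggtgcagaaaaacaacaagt
IMD2: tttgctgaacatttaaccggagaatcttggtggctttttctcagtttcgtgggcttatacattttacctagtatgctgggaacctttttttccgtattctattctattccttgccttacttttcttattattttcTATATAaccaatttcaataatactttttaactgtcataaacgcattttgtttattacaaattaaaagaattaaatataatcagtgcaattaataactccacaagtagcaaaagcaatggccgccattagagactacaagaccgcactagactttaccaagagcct
The MIC19 match spans 134 to 125 bases before the first coding base, and the IMD2 match 115 to 110 bases before it. Among the 5551 tested genes with a whole window, 1807 (32.6%) hold TATATA, so the stretch is common and is given as a description of these starts.

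The libraries held 9428849 to 12305863 counts on genes. Of 6692 open reading frames in the table, 5737 passed the filter on low counts and were tested, and 955 were not. A level is given as CPM, a count per 1000000 counts of its library after scaling by trimmed means of M values (TMM), and 3 counts, the floor used here, came to at most 0.318 CPM. The 7 MATa markers, among them the receptor gene STE2, summed to 1316 to 1971 CPM in H3A110C and 1234 to 1891 CPM in WT. The 4 markers of the other mating type summed to 29.7 to 32.4 CPM in H3A110C and 27.6 to 33.6 CPM in WT, most of it from SAG1. LEU2, MET17 and URA3, which both strains lack, stood at 0.466 CPM or less in every library. The methods of the study speak of independent experiments, of which there were more than the 3 libraries per strain used here. The labels do not tie a library to an experiment or culture. The p-values of the strain comparison rest on how the strain difference varies between letters, after the shift shared by both strains of a letter is removed. A prior shared over genes supplies 6.5 of their 8.5 degrees of freedom. Whether that variation is one between independent cultures is not known. A count is a share of its library, and a change in some of the cells cannot be told apart from a smaller change in all of them.

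In H3A110C, 1 gene was higher than in WT and 1 was lower (edgeR quasi-likelihood test, adjusted p below 0.05), 0.0174% of the tested genes in each direction. The gene that was higher was MIC19 and the gene that was lower was IMD2. With DESeq2 size factors the counts were 1 higher and 3 lower, and with total counts alone they were 1 and 0. They also moved when libraries were left out: 5 higher and 9 lower without letter A, 3 and 2 without letter B, and 55 and 13 without letter C. MIC19, IMD2 and COS8 were the 3 genes called in each of the 9 fits that left out a library or a letter, out of 86 genes called in any of them. A letter with 1 library left does not inform the strain difference, so these 9 fits hold only 3 distinct comparisons, 1 per letter. Calls in them are not a sign of a firmer difference. COS8 missed the threshold with all libraries (edgeR adjusted p = 0.0584), and the adjusted p of MIC19 was smaller in all 9 fits. Without WT letter C the SE of IMD2 rose from 0.055 to 0.075, yet its adjusted p fell. Before adjustment, p was under 0.05 for 95 genes on the higher side (1.66%) and 39 on the lower side (0.68%), together 2.34% of all tested.

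MIC19 (YFR011C, chromosome VI, 166746 to 167258) stood at 46.9, 50.7 and 47.5 CPM in H3A110C letters A, B and C, against 6.48, 7.71 and 5.98 CPM in WT letters A, B and C. The 2 strains were far apart in every letter, and within a strain the 3 libraries lay close together. The log2 fold change was 2.85 (SE 0.106, 95% interval 2.61 to 3.10, edgeR adjusted p = 5.29e-06), or 7.23-fold. Within the letters the differences were 2.82, 2.69 and 2.95 on the log2 scale for A, B and C. MIC19 is one of the genes that did not vary between letters beyond the test's threshold (adjusted p = 0.446). Every 50-base window of its coding sequence occurs once in the genome, so its reads have no other copy to be shared with.

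The other subunits of MICOS did not share this difference. The list of MICOS and crista genes held 12 tested members, and the 11 apart from MIC19 were all bounded within 2-fold. A gene is called bounded when both 1-sided tests place its change inside 2-fold at an adjusted p below 0.05; 98% of all tested genes were. MIC60, the large core subunit, had 91.7, 179 and 96.0 CPM in H3A110C, against 92.3, 154 and 98.1 CPM in WT, and the groups overlapped (log2 fold change 0.06, 95% interval -0.09 to 0.21). MIC10, the other core subunit, which bends the membrane, had a log2 fold change of 0.11 (95% interval -0.04 to 0.25). MIC12, MIC26 and MIC27 had log2 fold changes of -0.02, 0.04 and 0.02. Between letters, 5 of the 12 members of the list were called (41.7%), against 45.4% of all tested genes. MIC60, MIC10, MIC26 and MIC27 were among them, and MIC19 and MIC12 were not.

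The genes beside MIC19 on chromosome VI did not follow it. UBP6, a deubiquitinating enzyme of the proteasome, had a log2 fold change of -0.03 (SE 0.053), and GCN20, an activator of the Gcn2 kinase, one of -0.02 (SE 0.061). On the other side DCV1 and YFR012W-A had 2.80 CPM or less in every library. Their log2 fold changes of -0.22 (SE 0.275) and -0.25 (SE 0.397) leave wide intervals.

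IMD2 (YHR216W, chromosome VIII, 554396 to 555967) lies 6676 bases from the right end of its chromosome. It stood at 94.9, 157 and 97.1 CPM in H3A110C letters A, B and C, against 143, 214 and 136 CPM in WT letters A, B and C. The groups overlap, because the letter B library of H3A110C was above WT letters A and C, yet H3A110C was the lower strain in each letter. The within-letter differences were -0.59, -0.45 and -0.48 on the log2 scale for A, B and C. The log2 fold change was -0.51 (SE 0.055, 95% interval -0.63 to -0.38, edgeR adjusted p = 0.0302). The call rests on the block and on the scaling: without the replicate block the value was -0.50 with an adjusted p of 0.99996, and with total counts alone -0.51 with an adjusted p of 0.0702. IMD2 itself varied between letters, with letter B 1.59-fold above A and C (adjusted p of the letter test 9.12e-05).

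**Figure D1:**
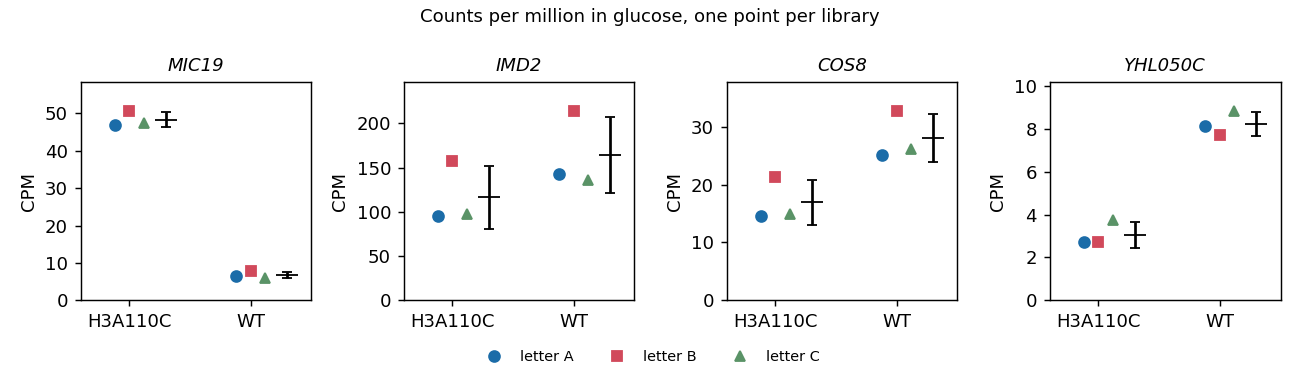
CPM (vertical axis) of MIC19, IMD2, COS8 and YHL050C in H3A110C and WT in glucose, 1 point per library with its letter, and the mean ± SD of 3 libraries beside them. MIC19 is at 46.9 to 50.7 CPM in H3A110C, above 5.98 to 7.71 CPM in WT, while the IMD2 groups overlap because letter B is high in both strains.

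IMD3 and IMD4, which encode the other isoforms of the enzyme, did not share the IMD2 difference. IMD3 had 855, 702 and 880 CPM in H3A110C, against 886, 749 and 861 CPM in WT (log2 fold change -0.04, 95% interval -0.19 to 0.11). IMD4 had a log2 fold change of -0.02 (95% interval -0.17 to 0.13). Both were lower in letter B than in A and C in both strains, opposite to IMD2. Of the IMD2 coding sequence, 66.3% of the 50-base windows occur once in the genome, so a part of its counts could be set by how reads with several matches were handled. GUA1, the next enzyme towards guanine nucleotides, had a log2 fold change of -0.02 (SE 0.072). In the purine list as a whole, 27 of 27 tested genes were bounded within 2-fold, against 98% of all tested genes. At the unadjusted threshold 2 passed upwards and 1, IMD2, downwards, against 1.66% and 0.68% of all tested genes. The member beyond IMD2 with the next largest change was ADE17, which joins the last steps of IMP synthesis, at 124, 459 and 149 CPM in H3A110C, against 129, 236 and 126 CPM in WT. The ADE17 difference lay in letter B, at 0.96 on the log2 scale, against -0.06 in letter A and 0.24 in letter C, and did not pass the adjusted test (log2 fold change 0.39, SE 0.156, edgeR adjusted p = 0.9998).

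After IMD2, the genes with the smallest p among those below 0 were COS8 and YHL050C, both at an adjusted p of 0.0584. COS8, one of a family of membrane proteins encoded close to chromosome ends, had 14.6, 21.3 and 14.8 CPM in H3A110C, against 25.1, 32.8 and 26.3 CPM in WT. All 3 H3A110C values were below all WT values, and the log2 fold change was -0.74 (SE 0.094, 95% interval -0.95 to -0.52). YHL050C, a helicase-like reading frame of a repeated element at chromosome ends, had 2.71, 2.71 and 3.73 CPM in H3A110C, against 8.17, 7.71 and 8.86 CPM in WT, again with no overlap (log2 fold change -1.43, SE 0.189). Only 14.9% of the 50-base windows of YHL050C occur once in the genome, against 82.6% for COS8, so YHL050C counts may stand for several copies. Each of the 2 genes was called in 7 of the 10 fits that kept all libraries. Among all tested genes, the H3A110C values lay wholly above WT in 78 (1.36%) and wholly below in 57 (0.994%).

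IMD2, COS8 and YHL050C, the 3 genes with the smallest p below 0, all lie at the ends of chromosome VIII. YHL050C and COS8 lie 444 and 6400 bases from the left end and IMD2 6676 bases from the right end. Their tested neighbours did not pass: ARN2 and ARN1, siderophore transporters farther in on the left, had log2 fold changes of 0.03 and -0.01, and PHO12, an acid phosphatase beside IMD2, had one of 0.27 at 2.98 CPM or less. Of the 247 reading frames within 20 kb of any chromosome end, 147 were tested. At the unadjusted threshold 6 were higher and 9 lower, against 1.66% and 0.68% of all tested genes, and 131 (89.1%) were bounded within 2-fold, against 98% of all, with a median log2 fold change of -0.0022 against 0.0076 over all tested genes. The 9 lower were IMD2, COS8, YHL050C, AAD3, COS12, RDS1, COS1, YIR042C and ADH7. COS12 had 0.417, 0.542 and 0.0811 CPM in H3A110C, against 1.68, 1.63 and 1.71 CPM in WT, and each value rests on few counts. AAD3, a putative aryl-alcohol dehydrogenase, had 12.2, 8.50 and 13.1 CPM in H3A110C, against 21.4, 13.1 and 19.1 CPM in WT, with the highest H3A110C value just above the lowest WT value. RDS1, a zinc cluster regulator, had a log2 fold change of -0.56 (edgeR adjusted p = 0.829). These lists and the position rule were drawn up with earlier results of the data known, and the counts are a description.

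Among the genes above 0, none but MIC19 passed. The next by p was YRO2, a plasma membrane protein, with 155, 166 and 147 CPM in H3A110C, against 111, 131 and 116 CPM in WT. All H3A110C values were above all WT values, and the log2 fold change was 0.38 (SE 0.055, edgeR adjusted p = 0.107). ALD3, a cytosolic aldehyde dehydrogenase, had 15.5, 38.2 and 12.7 CPM in H3A110C, against 9.34, 26.5 and 9.09 CPM in WT (log2 fold change 0.57, SE 0.105, adjusted p = 0.394 in edgeR). TPO2, a polyamine exporter, had 262, 77.0 and 259 CPM in H3A110C, against 168, 58.4 and 222 CPM in WT (log2 fold change 0.42, SE 0.079, adjusted p = 0.405 in edgeR). For ALD3 and TPO2 the strains overlap across letters and H3A110C is the higher strain in each letter. The rest of the 10 smallest p above 0 were CUP1-2, YLR154C-H, AIM45, RIE1, MUP1 and WSC4, each with an adjusted p of 0.708 or more. YLR154C-H lies in the ribosomal DNA and has no window that occurs once. Below 0 the list ended with YLR227W-B, a retrotransposon reading frame, MIG3, ATO3 and NDJ1. MIG3, a repressor of the Mig family, had a log2 fold change of -0.29 (SE 0.066), and ATO3, an ammonium exporter, one of -0.34 (SE 0.084). YRO2 was called in 2 and TPO2 in 1 of the 10 fits that kept all libraries.

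The copper genes are of interest because of the proposed copper site. The metallothionein genes CUP1-1 and CUP1-2, which encode the main copper-binding protein, are identical copies with no 50-base window of their own, so the division of reads between them is uncertain. CUP1-2 had 33.6, 61.9 and 28.1 CPM in H3A110C, against 17.8, 36.0 and 24.7 CPM in WT (log2 fold change 0.63, SE 0.132, edgeR adjusted p = 0.708). CUP1-1 had 53.0, 112 and 59.6 CPM in H3A110C, against 54.5, 93.1 and 37.1 CPM in WT (log2 fold change 0.30, SE 0.119). In both copies the strains overlapped across letters. Within letters CUP1-2 was higher in H3A110C each time, by 0.91, 0.78 and 0.18 on the log2 scale for A, B and C. CUP1-1 was higher in H3A110C in letters B and C and slightly lower in letter A. The 2 copies were not tested as a sum. None of the copper genes passed the adjusted test, and 21 of 21 were bounded within 2-fold, against 98% of all tested genes. Their median log2 fold change was -0.02. CTR1, the copper importer, had a log2 fold change of -0.29 (95% interval -0.72 to 0.14), CUP2, the copper-sensing activator of CUP1, one of -0.01 (95% interval -0.18 to 0.16), and SOD1, copper-zinc superoxide dismutase, one of 0.11 (95% interval -0.08 to 0.31).

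For nearly all genes the data set a limit on the change. Of the 5737 tested genes, 5621 were bounded within 2-fold. The 95% interval itself lay within 2-fold for 5556 genes (96.8%) and within 1.5-fold for 5191 (90.5%). The median log2 fold change over all tested genes was 0.0076, and the median half-width of the interval was 0.174. The limit was loosest at low counts. Under 10 CPM the median half-width was 0.563 and 84.2% of genes were bounded, against 0.185 and 99.9% from 10 to 100 CPM, 0.137 and 99.9% from 100 to 1000 CPM and 0.185 and 100% over 1000 CPM. Of the 116 genes that were not bounded, 111 had under 10 CPM on average, and the other 5 were MIC19, HSP12, ZRT1, ADH4 and ZPS1. Of the 9 genes with a change over 2-fold, 7 had under 10 CPM, and the 2 above that level were MIC19 and ZPS1.

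**Figure D2:**
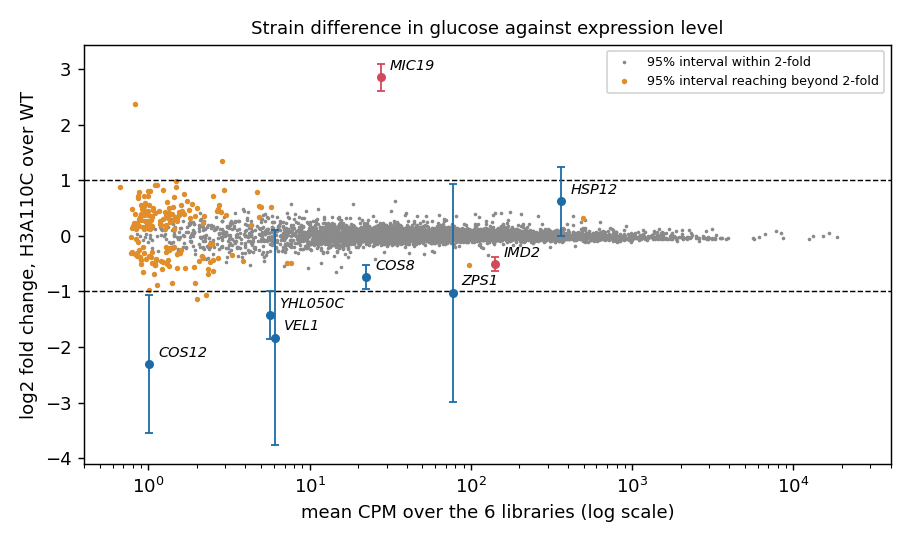
Log2 fold change of H3A110C over WT (vertical axis) against the mean CPM of 6 libraries (horizontal log axis), 1 point per tested gene, grey where the 95% interval lies within 2-fold (dashed lines) and orange where it reaches beyond. Named genes carry their 95% intervals; MIC19 at 2.85 lies apart, and the orange points are nearly all under 10 CPM.

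By gene group the picture was the same. Of 39 lists, 28 had every tested member bounded, where 98% of all tested genes were bounded. The list medians ran from -0.04 for RNA polymerases I and III to 0.07 for nitrogen catabolism. The bound given here is the largest end of a member's 95% interval, as a fold in either direction. Each interval is for 1 gene, so the largest bound of a list is not a 95% limit for all its members together. The bounded call uses 1-sided tests, so a bounded gene can have an interval end beyond 2-fold. For the 33 proteasome genes this bound had a median of 1.11-fold and was at most 1.17-fold. For the 60 genes of ribosome biogenesis it was at most 1.20-fold, for the 138 cytosolic ribosomal proteins at most 1.25-fold, and for the 69 mitochondrial ribosomal proteins at most 1.32-fold. The 11 histone genes, HHT1 and HHT2 among them, were bounded with a maximum of 1.26-fold, and the largest change was that of CSE4, the centromeric H3, at 0.14 on the log2 scale.

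The respiratory, iron and glutathione groups were also bounded in glucose. The 34 genes of the respiratory chain had a median log2 fold change of 0.05 and a largest bound of 1.68-fold, set by CYC7, the cytochrome c isoform of low oxygen. The 21 genes of the TCA cycle had a median of 0.06 and a bound of at most 1.45-fold. The 32 tested genes of the iron regulon had a median of 0.03 and a bound of at most 2.13-fold, and the member with the largest change was BIO5, a biotin intermediate transporter, at 0.50. FET3, the multicopper oxidase of iron uptake, had 200, 376 and 281 CPM in H3A110C, against 233, 273 and 271 CPM in WT, with overlapping groups (log2 fold change 0.10, 95% interval -0.15 to 0.35). The 25 iron-sulfur assembly genes were bounded at 1.25-fold or less, and the 25 genes of glutathione and thioredoxin at 1.38-fold or less. None of the respiratory chain, TCA cycle or iron-sulfur assembly genes passed the unadjusted threshold, against 1.66% of all tested genes upwards and 0.68% downwards.

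The same holds for several growth and stress groups. The 46 tested amino acid genes under Gcn4 had a largest bound of 1.72-fold, the 29 cell cycle genes 1.84-fold, the 26 autophagy genes 1.64-fold, the 18 trehalose and glycogen genes 1.60-fold and the 22 glycolysis and fermentation genes 1.87-fold. None of these 5 groups had a member past the unadjusted threshold, against 1.66% of all tested genes upwards and 0.68% downwards. Only 2 of the 39 lists had a median of the same sign in all 3 letters. Among single tested genes, 1074 (18.7%) had the same sign in all 3 letters. For trehalose and glycogen the median difference between H3A110C and WT was -0.02 in letter A, 0.32 in letter B and -0.20 in letter C. For the cytosolic ribosomal proteins it was -0.07 in letter A, -0.20 in letter B and 0.15 in letter C. With 1 library per strain and letter it cannot be tested whether the strain difference itself varies between letters.

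**Figure D3:**
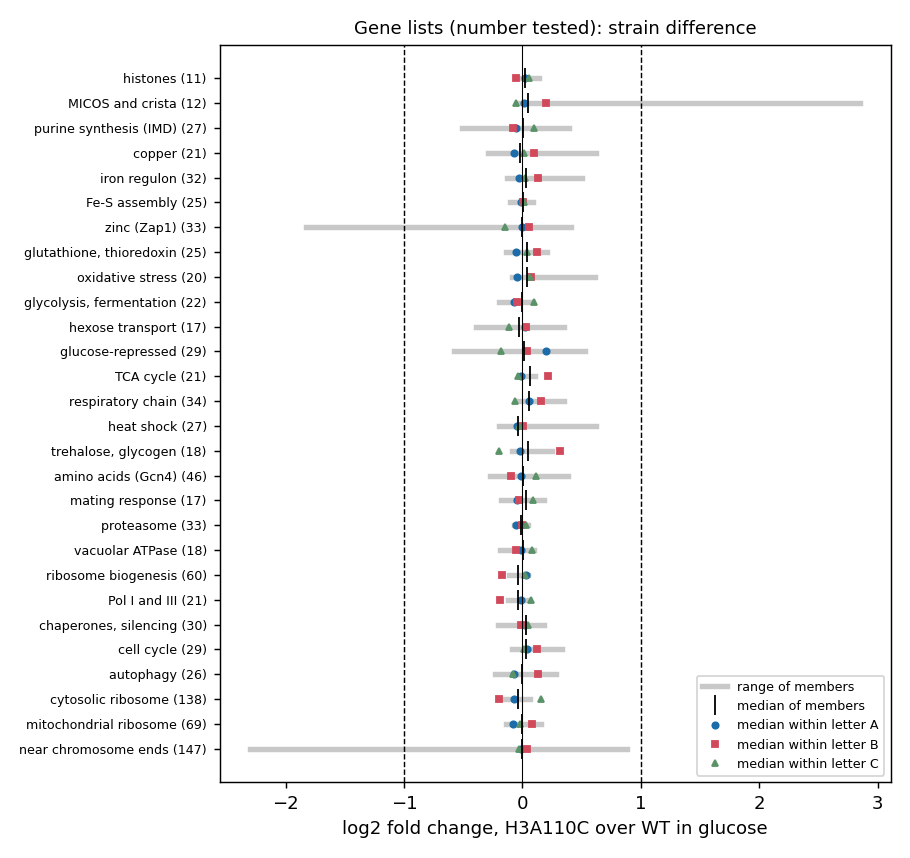
Log2 fold change of H3A110C over WT (horizontal axis) for 28 gene lists, with the number of tested members in parentheses: grey bars span the members, black ticks are the list medians and coloured points the medians within letters A, B and C; dashed lines mark 2-fold. Medians lie close to 0, and the long bars belong to lists with MIC19, with VEL1 or with genes of low counts near chromosome ends.

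Among the genes above 10 CPM on average that were not bounded, ZRT1, ZPS1 and ADH4 had single libraries that stood apart. ZRT1, the high-affinity zinc importer, had 385, 520 and 447 CPM in H3A110C letters A, B and C, against 84.4, 435 and 1100 CPM in WT letters A, B and C. ZPS1, a secreted protein induced by low zinc, had 13.9, 83.9 and 12.1 CPM in H3A110C, against 11.3, 32.6 and 308 CPM in WT. ADH4, an alcohol dehydrogenase induced by low zinc, had 75.7, 69.0 and 75.8 CPM in H3A110C, against 75.4, 66.0 and 223 CPM in WT. VEL1, another gene of low zinc, with a mean of only 6.10 CPM, had 2.40, 2.26 and 1.30 CPM in H3A110C, against 1.18, 1.52 and 28.0 CPM in WT. In all 4 the WT letter C library was the highest, and these were the only genes over 10 CPM in that library that stood more than 2-fold above each of the other 5. Over the 33 tested genes of the zinc list, 11 were highest in WT letter C, against 12.4% of all tested genes, and 29 (87.9%) were bounded within 2-fold, against 98% of all tested genes. The intervals were accordingly wide, from -0.76 to 1.41 for ZRT1 and from -2.98 to 0.94 for ZPS1 on the log2 scale. The calls flipped with the library left out: ZPS1 was at -1.57 and called lower without the letter A library of H3A110C, and at 0.99 and called higher without letter C. These 4 genes were picked after their values were seen.

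HSP12, a small membrane-bound heat shock protein, was the gene over 100 CPM with the largest change. It had 476, 624 and 228 CPM in H3A110C, against 159, 405 and 289 CPM in WT, with H3A110C higher in letters A and B and lower in letter C (log2 fold change 0.62, SE 0.271, 95% interval 0.00016 to 1.24, edgeR adjusted p = 0.9998). INO1 and HXT4 were the only genes over 10 CPM that stood more than 2-fold above the other 5 libraries in H3A110C letter B. INO1, inositol phosphate synthase, had 53.1, 500 and 43.7 CPM in H3A110C, against 44.6, 219 and 60.6 CPM in WT. HXT4, a hexose transporter, had 123, 715 and 120 CPM in H3A110C, against 104, 354 and 145 CPM in WT. For both, letter B was the high library in each strain.

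**Figure D4:**
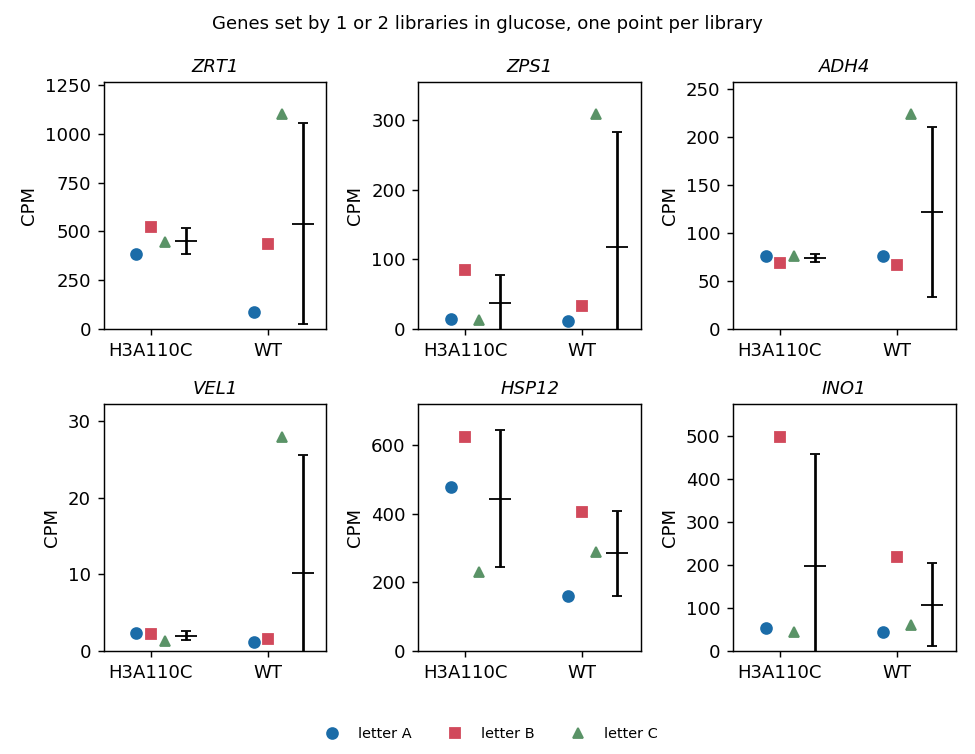
CPM (vertical axis) of ZRT1, ZPS1, ADH4, VEL1, HSP12 and INO1 in H3A110C and WT in glucose, 1 point per library with its letter, and the mean ± SD of 3 libraries, drawn down to 0. WT letter C is the highest library for the 4 zinc genes, at 1100 CPM for ZRT1, and letter B is the highest in both strains for INO1.

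The letters differed far more than the strains. A test of the letter with the strain held fixed called 2602 genes (45.4%), of which letter B was above the other 4 libraries for 1353 (23.6%) and below them for 1236 (21.5%). Letter B was more than 2-fold higher for 327 genes and more than 2-fold lower for 103. On the log2 CPM scale the letters took 86.0% of the sum of squares (2 degrees of freedom), the strains 4.35% (1) and the remainder 9.63% (2). Per degree of freedom the strains took no more than the remainder. The median absolute difference of letter B from the mean of A and C was 0.297 in H3A110C and 0.281 in WT. Between letters A and C it was 0.080 in H3A110C and 0.082 in WT. For the difference between the strains it was 0.048, but that is an average over letters and carries less noise. Letter B minus the mean of A and C correlated at 0.886 between H3A110C and WT across the 5737 genes, and its sign was shared by 81.7% of them; the points share their libraries, and genes are not independent replicates.

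Letters A and C, in contrast, did not differ detectably. With letter B left out, none of 5755 genes was called between A and C by edgeR or by DESeq2, and 188 (3.27%) had an unadjusted p below 0.05 in edgeR. The difference between A and C correlated at -0.114 between the strains, with the same sign in 46.8% of genes. The block therefore removes what letter B has in common in both strains. With A and C merged into 1 level, MIC19 had a log2 fold change of 2.85 and IMD2 one of -0.51 (edgeR adjusted p = 0.00264), and 2 genes were higher and 3 lower.

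Several of the genes with the largest rise in letter B are known to be low in cells with ample glucose. HXT6 and HXT7 encode high-affinity glucose transporters and share most of their sequence, so that 4.93% of the windows of each occur once. HXT6 had 48.3, 1672 and 52.3 CPM in H3A110C letters A, B and C, against 36.3, 1188 and 56.3 CPM in WT letters A, B and C. HXK1, the hexokinase isoform repressed by glucose, had 240, 4163 and 237 CPM in H3A110C, against 210, 3027 and 318 CPM in WT. GPH1, glycogen phosphorylase, had 91.4, 2093 and 84.1 CPM in H3A110C, against 74.6, 1367 and 97.9 CPM in WT. EGO4 rose the most, with 514 CPM in H3A110C letter B and 397 CPM in WT letter B against 13.6 to 17.6 CPM in the other 4 libraries. In each of these genes the 2 letter B libraries stood apart from the other 4 and the strains overlapped. The rest of the 15 largest rises were CYC7, HXT7, YNL194C, RGI1, TMA10, CTT1, COX26, YFR052C-A, YNL195C, AIM17 and PGM2, the last being the main phosphoglucomutase, which feeds glycogen and trehalose.

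Whole groups were called with them. Of the 18 trehalose and glycogen genes, 17 were higher in letter B, with a median difference of 2.10 in H3A110C and 1.55 in WT. Of the 34 respiratory chain genes 32 were higher (medians 0.71 in H3A110C and 0.51 in WT), of the 21 TCA cycle genes 16, of the 26 autophagy genes 18 and of the 33 proteasome genes 24, against 23.6% of all tested genes. The proteasome genes moved by a median of 0.26 in H3A110C and 0.20 in WT, a small shift shared by most members. Glycolysis and fermentation had 14 of 22 higher and heat shock 15 of 27.

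CTT1, the cytosolic catalase, was among the 15 largest rises in letter B. It had 23.8, 356 and 22.4 CPM in H3A110C, against 19.8, 226 and 24.5 CPM in WT, and letter B was again apart from the rest. Its start at VII:654384-654683 on the plus strand is shown because it carries the letters AGGGG on the complementary strand (CCCCT, in capitals), the core bound by the stress factors Msn2 and Msn4. Whether this match is bound, or has a part in the letter B rise, was not tested.
CTT1: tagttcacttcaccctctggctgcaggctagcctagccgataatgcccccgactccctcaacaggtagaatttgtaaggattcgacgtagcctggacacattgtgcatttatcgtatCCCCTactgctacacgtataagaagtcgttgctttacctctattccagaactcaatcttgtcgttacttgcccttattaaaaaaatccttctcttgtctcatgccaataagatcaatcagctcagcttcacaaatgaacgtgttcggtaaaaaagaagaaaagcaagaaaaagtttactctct
AGGGG, on either strand, occurred in the 300-base windows of 531 of 1337 genes higher in letter B (39.7%), of 167 of 1232 genes lower in it (13.6%) and of 1208 of 5551 tested genes (21.8%). Of the 14 largest rises with a window 9 held it, and of the 15 largest falls 0. GATGAG, the core of an element common before ribosome biogenesis genes, went the other way, at 12.9% of the genes higher in letter B and 28.2% of those lower, against 20.1% of all. AAAATTTT, which often accompanies it, was in 3.66% and 14.7%, against 9.39% of all.

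Among the 15 largest falls in letter B were genes of varied function. ILV5, an enzyme of branched-chain amino acid synthesis, had 1977, 508 and 2135 CPM in H3A110C, against 2150, 478 and 2018 CPM in WT. MIG2, a repressor active in glucose, had 179, 46.8 and 173 CPM in H3A110C, against 174, 52.8 and 204 CPM in WT. TPO2, named above for its strain difference, was also among the 15 largest falls. In both genes the 2 letter B libraries lay far below the other 4, in either strain. The rest of the 15 were AMF1, FEX2, RPS28B, RGS2, VTS1, YGR079W, RAX2, YBR238C, INA1, PCL1, MTO1 and NCA3. AMF1 and FEX2, a transporter and a fluoride exporter, had under 10 CPM in every library.

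Of the 29 cell cycle genes 21 were lower in letter B, by medians of -0.58 in H3A110C and -0.58 in WT. CLN3, the cyclin that starts the cycle, had 116, 53.2 and 115 CPM in H3A110C, against 115, 46.9 and 122 CPM in WT. Of the 21 genes of RNA polymerases I and III 16 were lower, of the 60 ribosome biogenesis genes 32 and of the 17 mating response genes 10, against 21.5% of all tested genes. The cytosolic ribosomal proteins had 34 of 138 lower, near that background. Few histone and vacuolar ATPase genes were called between letters, 1 of 11 and 2 of 18 in either direction, against 45.4% of all tested genes.

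**Figure D5:**
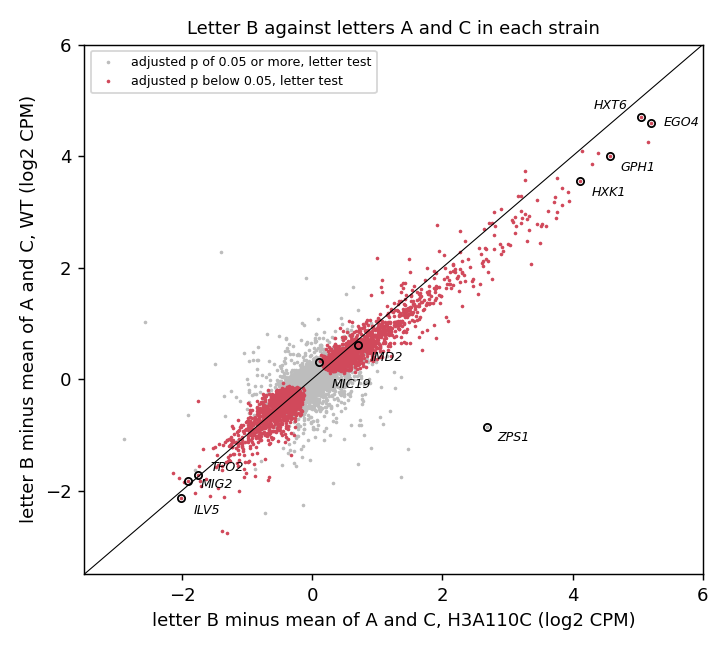
Letter B minus the mean of letters A and C, in log2 CPM, in H3A110C (horizontal axis) and WT (vertical axis), 1 point per tested gene, red where the letter test has an adjusted p below 0.05, with the line of equality. EGO4, HXT6, GPH1 and HXK1 lie far up the line and ILV5 and MIG2 far down it, MIC19 lies near the centre, and ZPS1 lies off the line.

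Ethanol and glycerol medium (SCEG), in which yeast must respire, was used here only to ask whether the MIC19 and IMD2 differences depend on the medium. The SCEG libraries of the 2 strains held 3707388 to 5096081 counts on genes, fewer than the SC libraries, and carry numbers in place of letters. A difference between media cannot be told apart from one of depth or library set. In a fit of 12 libraries, 3 per strain and medium, 10 of 5915 genes had a strain difference that differed between the media (edgeR, adjusted p below 0.05). For IMD2 the strain difference was -1.43 in SCEG and -0.51 in SC, and the difference of the 2 was -0.92 (SE 0.107, edgeR adjusted p = 0.00652). This call was lost when SCEG replicate 2 of either strain was left out (adjusted p = 0.13) and without the replicate block (adjusted p = 0.99996). Scaled over the 12 libraries, IMD2 had 23.5, 22.5 and 23.7 CPM in H3A110C and 62.3, 64.1 and 60.7 CPM in WT in SCEG. In SC, on the same scale, it had 103, 168 and 105 CPM in H3A110C and 155, 230 and 147 CPM in WT. For MIC19 the strain difference was 2.25 in SCEG and 2.85 in SC, and the difference of the 2, -0.60 (SE 0.198), did not pass (edgeR adjusted p = 0.383). For YHL050C the strain difference was 0.37 in SCEG and -1.43 in SC (difference 1.81, SE 0.285, edgeR adjusted p = 0.0388), and COS8, at -0.01 in SCEG and -0.74 in SC, missed the threshold (difference 0.74, edgeR adjusted p = 0.106). YHL050C and COS8 were looked at because of their low p in SC.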

How the data were processed

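The authors aligned reads to the R64 genome (sacCer3) with HISAT2 in a strand-specific manner and deposited raw read counts for 6692 open reading frames, made with featureCounts; versions and the handling of reads with several matches are not given in the sources used here. A second deposited table of normalized values was not used. Counts of the 6 SC columns were tested in edgeR 4.0.16 (R 4.3.3): filterByExpr, TMM factors, quasi-likelihood test, with strain and letter as terms and Benjamini-Hochberg adjustment over all tested genes. The 95% intervals used the coefficient's standard error and a t distribution with 8.5 degrees of freedom, and bounds used 2 one-sided tests against 2-fold. Scripts were checked on simulated data. DESeq2 1.42.0 was an alternative.

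The letter was kept as a block because H3A110C and WT libraries of the same letter deviated together from their strain means, at correlations of 0.718, 0.886 and 0.623 for A, B and C. Between letters A and C the correlations were as high, 0.754 for H3A110C C with WT A and 0.685 for H3A110C A with WT C, so the pairing shows for letter B only. Of the 6692 identifiers, 6008 matched the R64 annotation, which gave names and positions. Named genes are MIC19, IMD2, their neighbours and paralogs, the MICOS and histone genes, every called gene, the 10 smallest p in each direction, the largest and most abundant members of lists, and the 15 largest rises and falls of letter B; others are named as picked later or as background. The comparison, its genes and the 39 lists were chosen with earlier results of these data known.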

Additional observations from a re-analysis of the deposited data

Results flagged for a closer look

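The strain difference of IMD2 was larger in ethanol and glycerol than in glucose, by -0.92 on the log2 scale (-0.915, edgeR interaction test, adjusted p = 0.00652), with the 3 H3A110C libraries below the 3 WT libraries in SCEG. The call was lost without SCEG replicate 2 of either strain (adjusted p = 0.13) and without the replicate block (adjusted p = 0.99996). The strain difference of YHL050C, which was looked at because of its low p in glucose, went the other way between the media, by 1.81 (edgeR adjusted p = 0.0388). The part that reads of other copies of the YHL050C repeat play in it was not tested. For both genes the medium goes together with sequencing depth, which was lower in SCEG, and the 2 cannot be told apart.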

How the results depend on the processing

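MIC19 kept its direction and its call under every setting run, at 2.77 to 2.92 when a library or letter was left out. Its adjusted p was smaller in those fits than with all libraries, so these calls are not added support. IMD2 kept its direction under every setting, at -0.54 to -0.47 with libraries left out, and lost its call with total counts alone (-0.51, adjusted p = 0.0702). Without the replicate block MIC19 was at 2.85 (edgeR adjusted p = 0.00402) and IMD2 at -0.50 (adjusted p = 0.99996), 1 gene was higher and 0 were lower, 5221 genes were bounded, and the differences between media were -0.59 for MIC19 and -0.92 for IMD2, the second no longer called (adjusted p = 0.99996 for both). The number of genes higher was 3 with DESeq2 and 2 with letters A and C merged, an alternative chosen after seeing the data. The number lower was 0 with total counts and 3 with DESeq2, DESeq2 size factors, no filter, at least 10 counts in every library, both media in one fit, a robust fit or letters A and C merged. With a library or letter left out, 3 to 60 genes were higher and 2 to 16 lower. The 3 fits without the C library of WT (60 and 16), of H3A110C (47 and 8) or of both (55 and 13) gave the most higher calls, and the cause was not tested. All 3 compare the strains within letters A and B only, so they count as 1 comparison. Genes bounded within 2-fold numbered 5515 to 5552 with libraries left out. Genes that differ between letters numbered 2230 to 3088 with a library or with letter A or C left out and 0 without letter B. The difference between media of IMD2 ran from -0.96 to -0.88 with libraries left out and lost its call without SCEG replicate 2 of either strain (adjusted p = 0.13). Under the other scalings and with letters left out, 190 values of list medians moved by less than the spread between letters and 5 by more. Of the genes that could not be bounded, 111 of 116 had under 10 CPM; the part that depth and single libraries play in this was not tested.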
